A study of Mus musculus with 13 samples.

Results

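Cst10, Smr3a, Amy1 and Smr2 are 4 mouse genes for secreted salivary proteins whose RNA in the submandibular gland was concentrated in a few of the sequenced libraries. They were chosen by name, because earlier results of these same libraries had shown that single libraries carried much of their signal, so their levels are given here as a description, with no test. They are 4 of 48709 genes in the count table, and all 4 were among the 14727 genes kept by the filter on low counts. The 13 libraries were made from bulk RNA of the submandibular gland, which in mice is among the larger salivary glands, of animals aged 1 year, 300 days after treatment, of a strain labelled CH3. The PreIR-NTN group (5 libraries) had received Cere-120, an adeno-associated virus vector for the growth factor neurturin (AAV2-NRTN), in the gland 10 days before irradiation. The PreIR-GFP group (5 libraries) had received AAV2-GFP, the same type of vector with green fluorescent protein, on the same schedule. The NonIR group (3 libraries) was not irradiated, and the labels do not say whether those mice received a vector. Irradiation and vector therefore cannot be told apart in either comparison with NonIR. Nothing in the labels ties the replicates to separate animals, so every spread below is the spread between libraries and may be partly technical.

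Saliva proteins are made by the acinar cells and granular ducts of the salivary glands and are stored in granules until nerve signals release them. Amy1 encodes the salivary alpha-amylase, which cuts starch, and in mice it is known above all from the parotid gland. Cst10 encodes a cystatin, a small inhibitor of cysteine proteases, and has been described in mouse cartilage. Smr3a and Smr2 belong to the family of submaxillary gland androgen-regulated genes, which encode small proline-rich secreted proteins and lie near the casein genes. In rodents, several such genes are known to differ in level between the sexes.

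The libraries held between 9724304 and 16771004 reads, and levels are given in CPM, counts scaled to a common library size after adjustment by TMM (trimmed mean of M-values), in which 1 read was worth between 0.0587 and 0.0844 CPM. Car6, Smgc, Prol1 and Bpifa2, genes of the main secretory products, took between 19.1% and 29.3% of the reads, and within each group the log2 CPM of any pair of libraries correlated at 0.927 or more. Xist, the RNA of the inactive X chromosome, had between 197 and 437 reads, and 4 Y-linked genes had 0 reads in all 13 libraries. The table's entries for EGFP and for the AAV2 vector also had 0 reads in all 13, so the vector labels could not be checked from them. Some libraries stood apart by tissue content: the 16 skeletal muscle markers summed to 309 CPM in PreIR-GFP 2 and to between 3.76 and 7.49 CPM in the other 12 libraries, and the lymph node markers to 36.5 CPM in PreIR-GFP 5 and to between 5.95 and 16.1 CPM in the others. In bulk RNA, fewer cells of a type and less RNA per cell cannot be told apart.

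On the GRCm38 build (GENCODE mouse release M21), Cst10 (ENSMUSG00000033156) spans chr2:149405057-149410293 on the plus strand and Amy1 (ENSMUSG00000074264) chr3:113555710-113606699 on the minus strand. Smr3a (ENSMUSG00000029280) spans chr5:88002549-88008534 and Smr2 (ENSMUSG00000029281) chr5:88086556-88109053, both on the plus strand. Between the end of Smr3a and the start of Smr2 lie 78021 bases, with 2 annotated genes, the processed pseudogenes Gm7709 and Gm42623, which had 1 and 0 reads over all libraries. The 250 bases before the RefSeq start of each gene, on GRCm38.p6, are shown because Smr3a and Smr2 are near-copies there while their levels, given next, were high in different libraries. The RefSeq start is that of GENCODE for Smr2 and lies 24 bases before it for Smr3a, but 192 bases inside the GENCODE span for Cst10, and both Amy1 starts lie inside the GENCODE span of that gene. For Smr3a and Smr2, capitals mark the bases that are not matched in the alignment of the pair, unaligned ends included.
Smr3a, chr5:88002275-88002524, plus strand: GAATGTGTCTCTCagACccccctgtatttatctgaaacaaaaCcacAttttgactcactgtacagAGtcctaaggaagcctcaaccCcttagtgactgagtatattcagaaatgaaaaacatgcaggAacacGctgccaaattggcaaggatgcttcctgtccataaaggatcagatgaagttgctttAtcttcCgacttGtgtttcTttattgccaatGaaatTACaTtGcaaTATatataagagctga
Smr2, chr5:88086306-88086555, plus strand: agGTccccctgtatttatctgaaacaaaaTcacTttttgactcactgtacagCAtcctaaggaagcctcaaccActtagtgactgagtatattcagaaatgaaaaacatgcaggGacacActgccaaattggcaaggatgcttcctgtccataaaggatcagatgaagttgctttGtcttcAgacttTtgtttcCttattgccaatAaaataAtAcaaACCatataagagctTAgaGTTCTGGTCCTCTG

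Of 234 aligned positions, 215 were identical between the Smr3a and Smr2 sequences, or 91.9%, against 50.2% to 62.3% for every other pair of the 5 sequences shown here. The letters TATAAG, resembling a TATA box, begin 12 bases before the RefSeq start of Smr3a and 28 bases before that of Smr2, and the same letters occur on either strand in 6.65% of 32851 promoters. Both sequences also hold CCAAT on each strand, letters found in 33.8% of promoters. The letters of the E-box, CANNTG, occur in both sequences too, and in 66.2% of promoters. RefSeq gives Amy1 an upstream and a downstream start, and mouse Amy1 is known for a strong parotid promoter beside a weaker one also used in liver. In the Amy1 downstream sequence capitals mark TATAAG and, nearer to the start, a second TATA-like box; the other 2 sequences have none.
Amy1 upstream start, chr3:113577751-113578000, minus strand: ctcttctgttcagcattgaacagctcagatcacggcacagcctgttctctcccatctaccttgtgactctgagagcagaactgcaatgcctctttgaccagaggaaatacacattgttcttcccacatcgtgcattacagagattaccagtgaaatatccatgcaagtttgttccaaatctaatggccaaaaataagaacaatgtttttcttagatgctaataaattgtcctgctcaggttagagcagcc
Amy1 downstream start, chr3:113574763-113575012, minus strand: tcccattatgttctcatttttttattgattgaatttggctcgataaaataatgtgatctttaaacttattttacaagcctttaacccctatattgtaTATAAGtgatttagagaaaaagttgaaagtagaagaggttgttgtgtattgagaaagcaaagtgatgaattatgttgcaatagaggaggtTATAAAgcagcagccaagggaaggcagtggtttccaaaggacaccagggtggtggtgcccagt
Cst10, chr2:149404999-149405248, plus strand: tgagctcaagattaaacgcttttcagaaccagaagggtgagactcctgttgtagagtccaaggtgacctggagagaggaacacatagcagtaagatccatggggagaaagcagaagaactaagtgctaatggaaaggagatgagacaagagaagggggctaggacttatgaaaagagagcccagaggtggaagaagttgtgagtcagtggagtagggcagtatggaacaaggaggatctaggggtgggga

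The first of these boxes lies 153 bases before the Amy1 downstream start. The second lies 63 bases before it and has the letters TATAAA, found in 12.4% of promoters. TGTTCT, the core letters of the element that androgen and glucocorticoid receptors bind, occurs 3 times before the Amy1 upstream start and 1 time before the downstream start, and in 16.1% of promoters. It has no match in the Smr3a, Smr2 or Cst10 windows, which says only that these letters are not there. The motifs overlap with no other motif searched, and each was searched on both strands.

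Cst10 was near the detection limit in most glands and was carried by 3 libraries. It had 0 CPM in PreIR-NTN 1 to 4 and 0.159 CPM, from 2 reads, in PreIR-NTN 5. In PreIR-GFP 1 to 5 it had 0.0725, 0.132, 2.5, 0.405 and 0 CPM. In NonIR 1 to 3 it had 0.205, 3.80 and 21.6 CPM, from 3, 45 and 264 reads. NonIR 3 stood highest, followed by NonIR 2 and PreIR-GFP 3, and the other 10 libraries together held 14 Cst10 reads, at most 6 in any library. A count of 0 allows up to 3 reads, which is between 0.176 and 0.253 CPM in these libraries, so PreIR-NTN 5 and NonIR 1 cannot be told from the libraries listed at 0.

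The Cst10 means were 0.0317 ± 0.0709 CPM in PreIR-NTN (SD, n = 5), 0.622 ± 1.06 in PreIR-GFP (n = 5) and 8.53 ± 11.4 in NonIR (n = 3). Pooled over the libraries of a group, the reads gave a ratio of PreIR-NTN to NonIR of 0.00356, with a 95% interval of 0.000429 to 0.0130, and of PreIR-GFP to NonIR of 0.0693, with an interval of 0.0488 to 0.0962. These intervals cover counting error only. The fitted log2 fold change was -7.81 (SE 1.47) for PreIR-NTN over NonIR, -3.83 (SE 1.01) for PreIR-GFP over NonIR and -3.98 (SE 1.79) for PreIR-NTN over PreIR-GFP. With 2 reads in PreIR-NTN, both values of that group depend on the prior count. PreIR-NTN and NonIR did not overlap, but by only 0.159 against 0.205 CPM, and the other pairs of groups overlapped. Without NonIR 3 the values for PreIR-NTN and PreIR-GFP over NonIR were -5.70 and -1.72, and without PreIR-NTN 5 those for PreIR-NTN over NonIR and over PreIR-GFP were -9.90 and -6.07. Without PreIR-GFP 3, Cst10 no longer passed the filter on low counts.

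Smr3a followed the same 3 libraries. It had 0.143, 0, 0.0815, 0 and 0.397 CPM in PreIR-NTN 1 to 5, from 8 reads in all. In PreIR-GFP 1 to 5 it had 0.508, 0.264, 1.95, 0.0674 and 0 CPM. In NonIR 1 to 3 it had 0, 3.29 and 29.5 CPM, from 0, 39 and 361 reads. NonIR 1 thus lay at the bottom and NonIR 3 at the top of the whole series, and every pair of groups overlapped. The other 10 libraries held 20 Smr3a reads together, at most 7 in any library.

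The Smr3a means were 0.124 ± 0.164 CPM in PreIR-NTN (SD, n = 5), 0.559 ± 0.805 in PreIR-GFP (n = 5) and 10.9 ± 16.2 in NonIR (n = 3). The fitted log2 fold change was -6.44 (SE 1.51) for PreIR-NTN over NonIR, -4.35 (SE 1.25) for PreIR-GFP over NonIR and -2.10 (SE 1.77) for PreIR-NTN over PreIR-GFP. Without NonIR 3 the values over NonIR were -3.68 for PreIR-NTN and -1.58 for PreIR-GFP. The value for PreIR-NTN over PreIR-GFP was -0.74 without PreIR-GFP 3. Smr3a shares 41.8% of its 50-base stretches with Gm28434, an overlapping gene on the same strand that had 0 reads in all 13 libraries.

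Amy1 differed from these genes in having a floor: it was read in every gland, and NonIR 3 and NonIR 2 stood clear of it. It had 19.3, 19.3, 18.3, 20.7 and 25.2 CPM in PreIR-NTN 1 to 5. In PreIR-GFP 1 to 5 it had 12.5, 25.6, 38.5, 33.2 and 20.6 CPM. In NonIR 1 to 3 it had 32.2, 68.6 and 273 CPM. The PreIR-NTN libraries lay close together and below all 3 NonIR libraries, while PreIR-GFP and NonIR overlapped, with PreIR-GFP 3 and 4 at or above NonIR 1. PreIR-GFP 3, the next in level, was not clear of its neighbours: its Poisson interval of 35.2 to 42.1 CPM overlapped that of PreIR-GFP 4, 30.4 to 36.3, and met that of NonIR 1, 29.4 to 35.3. Outside NonIR 3, NonIR 2 and PreIR-GFP 3, the level was between 12.5 and 33.2 CPM, with a median of 20.7.

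The Amy1 means were 20.6 ± 2.74 CPM in PreIR-NTN (SD, n = 5), 26.1 ± 10.3 in PreIR-GFP (n = 5) and 125 ± 130 in NonIR (n = 3). The pooled reads gave a ratio to NonIR of 0.171 for PreIR-NTN, with a counting interval of 0.161 to 0.182, and of 0.216 for PreIR-GFP, with an interval of 0.204 to 0.228. The fitted log2 fold change was -2.60 (SE 0.55) for PreIR-NTN over NonIR, -2.26 (SE 0.55) for PreIR-GFP over NonIR and -0.34 (SE 0.49) for PreIR-NTN over PreIR-GFP. Without NonIR 3 the values over NonIR were -1.29 for PreIR-NTN and -0.95 for PreIR-GFP, and with NonIR 2 also left out, so that NonIR 1 alone stood for its group, they were -0.65 and -0.31. With any single library left out, PreIR-NTN over PreIR-GFP ranged from -0.49 without PreIR-GFP 1 to -0.16 without PreIR-GFP 3. Amy1 shares 33.3% of its 50-base stretches with other genes, most with Rnpc3, a splicing factor gene that overlaps it on the same strand and had 55 to 93 reads per library, so reads in the shared stretches are uncertain. The 7 genes listed for the pancreatic amylase family, Amy2a1 to Amy2a5, Amy2b and Amy2-ps1, had 0 reads in all 13 libraries. No counting tool is named, so how reads shared between genes were counted is unknown. These zeros alone therefore do not show that the RNA was absent.

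**Figure D1:**
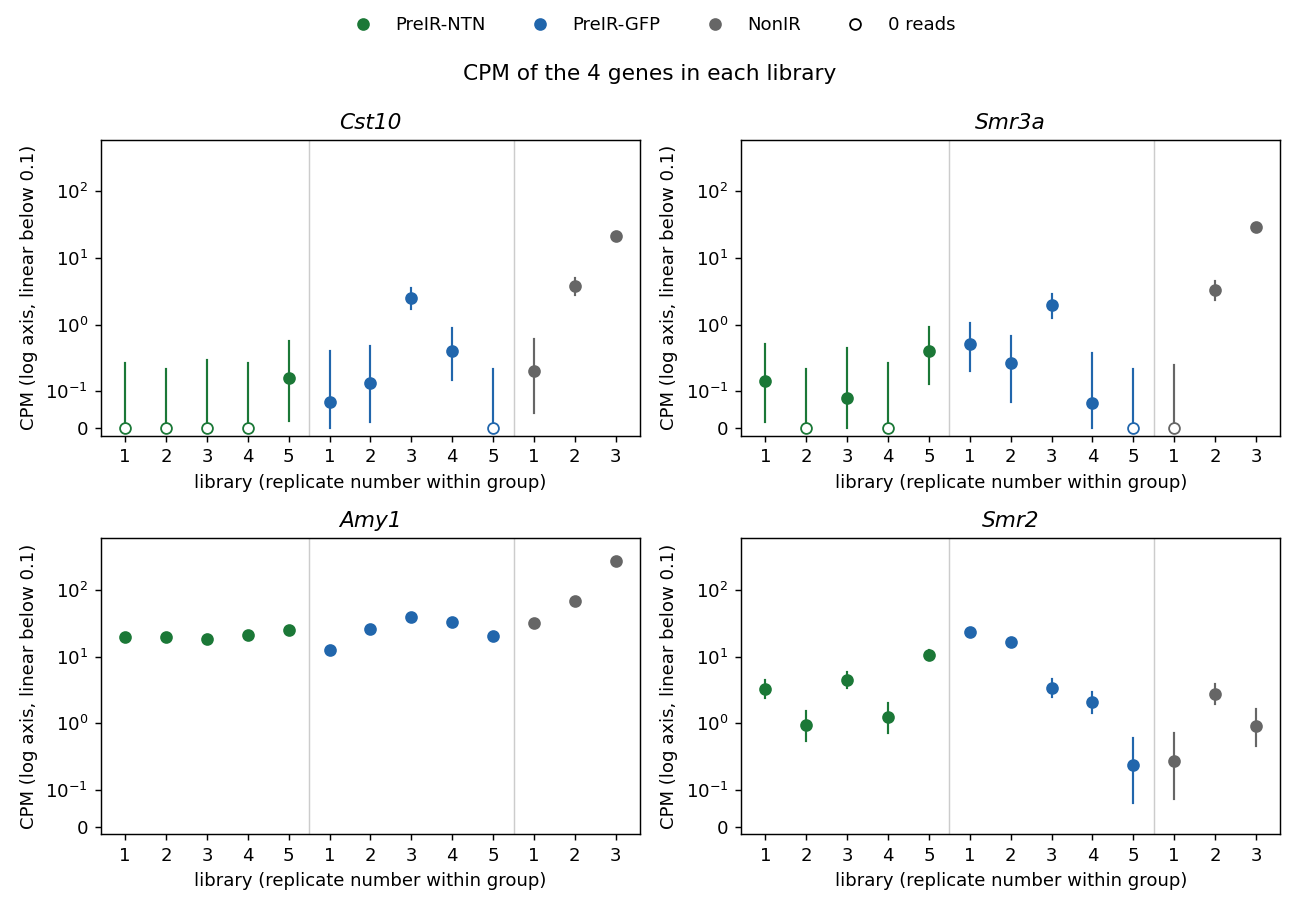
CPM (log axis, linear below 0.1) of Cst10, Smr3a, Amy1 and Smr2 in each library, by replicate number within PreIR-NTN (green), PreIR-GFP (blue) and NonIR (grey). Points are libraries, open points have 0 reads, and bars are 95% Poisson intervals, which cover counting error only. Cst10, Smr3a and Amy1 are highest in NonIR 3, at 21.6, 29.5 and 273 CPM, whereas Smr2 is highest in PreIR-GFP 1, at 23.5 CPM.

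Smr2, the neighbour of Smr3a with a near-identical window before its start, was high in other libraries. It had 3.30, 0.938, 4.48, 1.23 and 10.6 CPM in PreIR-NTN 1 to 5. In PreIR-GFP 1 to 5 it had 23.5, 16.8, 3.36, 2.09 and 0.238 CPM. In NonIR 1 to 3 it had 0.274, 2.78 and 0.899 CPM, from 4, 33 and 11 reads. PreIR-GFP 1, PreIR-GFP 2 and PreIR-NTN 5 were highest, PreIR-GFP 5 was lowest, and every pair of groups overlapped. The highest and the lowest level of the series thus both lay within PreIR-GFP.

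The Smr2 means were 4.12 ± 3.92 CPM in PreIR-NTN (SD, n = 5), 9.19 ± 10.3 in PreIR-GFP (n = 5) and 1.32 ± 1.31 in NonIR (n = 3). The pooled reads gave a ratio to NonIR of 3.10 for PreIR-NTN, with a counting interval of 2.27 to 4.31, and of 7.21 for PreIR-GFP, with an interval of 5.37 to 9.87. The fitted log2 fold change was 1.65 (SE 1.35) for PreIR-NTN over NonIR, 2.82 (SE 1.38) for PreIR-GFP over NonIR and -1.17 (SE 1.02) for PreIR-NTN over PreIR-GFP. With PreIR-GFP 1 and 2 left out, PreIR-GFP over NonIR was 0.48 and PreIR-NTN over PreIR-GFP was 1.19, the opposite sign. The value for PreIR-NTN over NonIR was 0.92 without PreIR-NTN 5 and 2.82 without NonIR 2. That for PreIR-NTN over PreIR-GFP was -0.45 without PreIR-GFP 1 and -1.90 without PreIR-NTN 5. The 16 muscle markers were also high in PreIR-GFP 2, but not in PreIR-NTN 5 or PreIR-GFP 1, where they summed to 4.20 and 4.06 CPM. PreIR-GFP 1, the highest library for Smr2, had the lowest sum of the series for the acinar genes, 68537 CPM, and for the granular convoluted tubule genes, 16198 CPM, against at least 115476 and 26889 CPM in the other 12 libraries. The acinar and tubule sums were 141754 and 71576 CPM in PreIR-GFP 2 and 318632 and 61240 CPM in PreIR-NTN 5. The libraries high for Smr2 thus did not all have low sums. The part that tissue content had in the Smr2 levels was not tested.

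The order of the group means was therefore NonIR, PreIR-GFP, PreIR-NTN for Cst10, Smr3a and Amy1, and PreIR-GFP, PreIR-NTN, NonIR for Smr2. In each of the 4 orders, every pair of neighbours differed by less than the larger of its SDs. Of the 4 genes, 2 did not overlap between PreIR-NTN and NonIR, Cst10 and Amy1, both lower in PreIR-NTN. Over all genes tested, 6.52% did not overlap in that comparison and 3.3% were lower in PreIR-NTN without overlap, against 5.14% for PreIR-GFP and NonIR and 1.11% for PreIR-NTN and PreIR-GFP, where none of the 4 genes did. Because the genes were picked from these levels, nothing is read from those counts.

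**Figure D2:**
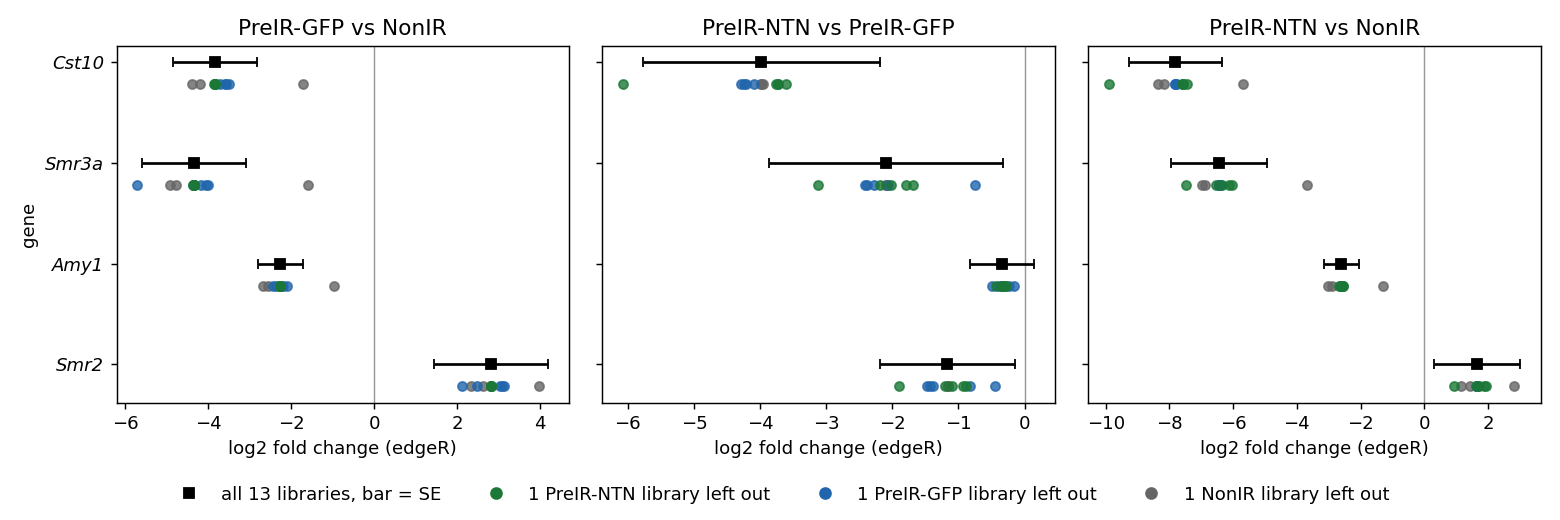
Log2 fold change of each gene from the edgeR fit, 1 panel per comparison, with all 13 libraries (black square, bar = SE) and with each library left out in turn (points, coloured by the group of the library left out). For Cst10, Smr3a and Amy1 over NonIR, the point nearest 0 is the fit without NonIR 3, at -1.72, -1.58 and -0.95 for PreIR-GFP over NonIR.

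How much of each gene a library held was measured as its share of the gene's CPM summed over the 13 libraries, where an even spread gives 7.69%. NonIR 3 held 81.5% of Smr3a, 74.8% of Cst10 and 45.0% of Amy1, and PreIR-GFP 1 held 33.3% of Smr2. Over all genes tested the highest library held a median of 10.9%, the 95th percentile was 18.7%, and the highest value was 89.7%. Among the genes tested, a share as high as that of Smr3a was reached by 2, itself included. That of Cst10 was reached by 6, that of Amy1 by 31 and that of Smr2 by 83. Together with NonIR 2 and PreIR-GFP 3, NonIR 3 held 96.6% of Cst10, 96.0% of Smr3a and 62.6% of Amy1. PreIR-GFP 1, PreIR-GFP 2 and PreIR-NTN 5 held 72.2% of Smr2.

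Among the genes tested, NonIR 3 was not the library that most often held a gene this way. Of the genes tested, 22 had at least 50% of their CPM in a single library. Of these, 8 had it in PreIR-GFP 1, 5 in PreIR-GFP 2, 4 in NonIR 3, 2 in PreIR-NTN 5 and 1 each in PreIR-NTN 1, PreIR-GFP 3 and PreIR-GFP 5. The 4 genes of NonIR 3 were Cst10, Smr3a, Chia1 and BC037156, the last pair of which is described below among the genes most like them. The filter on low counts dropped genes with enough reads in too few libraries, so these counts and the shares above leave such genes out. Myh4, a skeletal muscle marker, was not tested and had 415 of its 424 reads in PreIR-GFP 2.

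**Figure D3:**
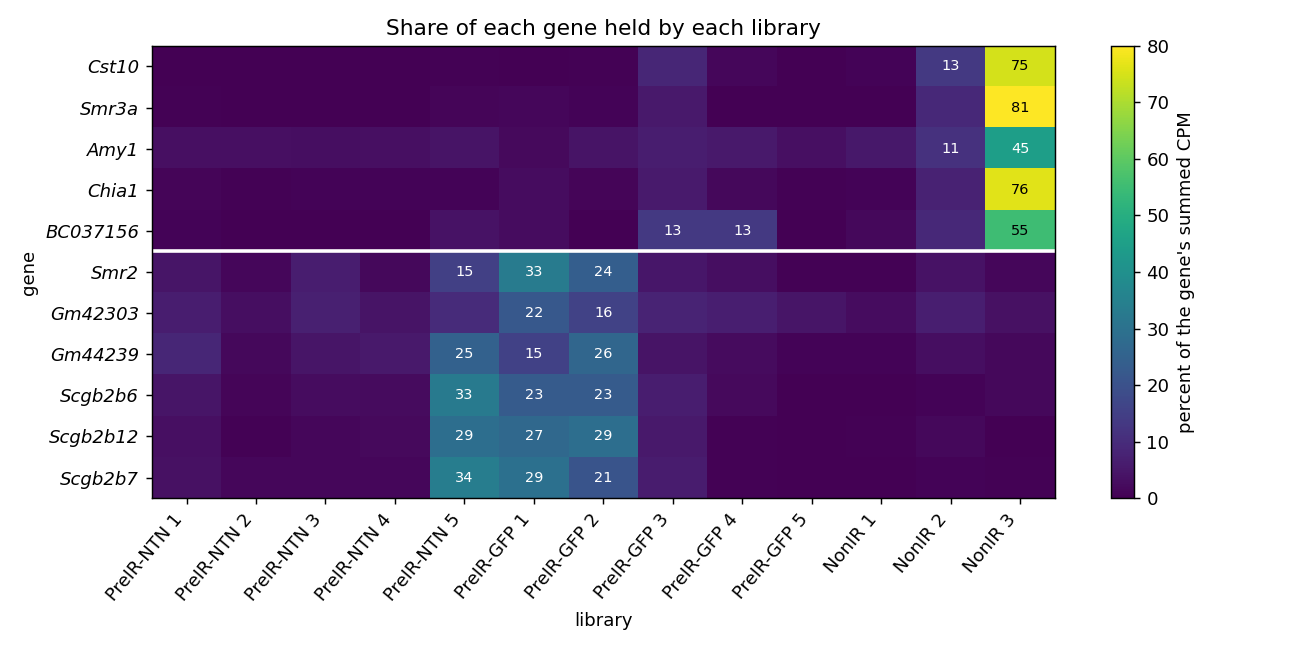
Share of each gene's summed CPM held by each library, in percent (colour scale, with shares of 10% or more written in), for the 4 genes and for the genes most like them. NonIR 3 holds the largest share of Cst10, Smr3a, Amy1, Chia1 and BC037156 (above the white line), and PreIR-NTN 5, PreIR-GFP 1 and PreIR-GFP 2 hold most of Smr2 and of 4 of the 5 genes below it.

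Compared per length, in CPM per kilobase of annotated exon, Amy1 led the 4 genes in each group, with medians of 5.60 in PreIR-NTN, 7.43 in PreIR-GFP and 19.9 in NonIR. Smr2 was second in both irradiated groups, with medians of 2.44 in PreIR-NTN and 2.49 in PreIR-GFP, and last in NonIR, at 0.665. The medians of Smr3a were 0.127, 0.413 and 5.15 CPM per kilobase in PreIR-NTN, PreIR-GFP and NonIR, and those of Cst10 were 0, 0.158 and 4.55. In NonIR 3, Amy1 reached 79.3, Smr3a 46.2 and Cst10 25.8 CPM per kilobase, while Smr2 stood at 0.665. The lengths include stretches shared with other genes, 33.3% of the 50-base stretches of Amy1 and 41.8% of those of Smr3a. For Smr2 and Cst10 these shares were 0.36% and 0%. How shared reads were counted is unknown, so the values per length are less certain for Amy1 and Smr3a.

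Likeness to each gene was measured over the 13 libraries as Pearson's r of log2 CPM with a prior count of 2, and the 5 genes with the highest r are named. The points share depth and scaling, and a single library weighs heavily, so r is also given without the gene's highest library. Cst10 was most like Chia1 (r = 0.94, and 0.86 without NonIR 3), Amy1 (0.94 and 0.88), Smr3a (0.93 and 0.85), BC037156 (0.91 and 0.84) and Hacd2 (0.81 and 0.71). Chia1 encodes an acidic chitinase, a secreted enzyme that cuts chitin, and Hacd2 an enzyme of fatty acid elongation. BC037156 is a long intergenic non-coding RNA at chr5:87908779-87914171, which ends 88377 bases before the start of Smr3a.

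Smr3a was most like Chia1 (r = 0.96, and 0.91 without NonIR 3), Cst10, Amy1 (0.85 and 0.59), BC037156 (0.84 and 0.68) and Rpl15 (0.82 and 0.77), a ribosomal protein gene. For Amy1 the list was Cst10, Tmem39b (0.88 and 0.68), Chia1 (0.86 and 0.59), Smr3a and BC037156 (0.83 and 0.66). Cst10, Smr3a and Amy1 thus stood in each other's lists, and Chia1 and BC037156 in the lists of all 3, whereas Hacd2, Rpl15 and Tmem39b moved little between libraries, with at most 9.92% of their CPM in a library. By rank the likeness was looser: Spearman's rho was 0.68 for Cst10 and Smr3a, 0.88 for Cst10 and Amy1 and 0.43 for Smr3a and Amy1. In order of r without NonIR 3, Cst10 stood at place 2 for Amy1, but BC037156, Chia1 and Smr3a at places 184, 456 and 460. For Smr3a, BC037156 and Amy1 then stood at places 61 and 205. Most of the likeness of Amy1 to these genes other than Cst10 thus rested on NonIR 3.

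Chia1 had the same high libraries at a higher level. It had 8.24, 2.82, 6.92, 5.51 and 5.63 CPM in PreIR-NTN 1 to 5 and 19.1, 8.64, 44.5, 12.1 and 3.09 CPM in PreIR-GFP 1 to 5. In NonIR 1 to 3 it had 5.20, 58.7 and 582 CPM. NonIR 3, NonIR 2 and PreIR-GFP 3 were again the 3 highest, with 76.3% of the gene's CPM in NonIR 3. BC037156 had 1.09 CPM in PreIR-GFP 3, 1.08 in PreIR-GFP 4, 0.760 in NonIR 2 and 4.49 in NonIR 3, against at most 0.317 in the other 9 libraries.

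Within the 3 high libraries the reads of these genes were set against each other. There were 0.0439 Smr3a reads per Chia1 read in PreIR-GFP 3, with an exact 95% interval of 0.0282 to 0.0655, against 0.0561 (0.0396 to 0.0775) in NonIR 2 and 0.0507 (0.0455 to 0.0563) in NonIR 3, and the 3 intervals overlap. For Cst10 per Chia1 read the values were 0.0562 (0.0381 to 0.0803) in PreIR-GFP 3, 0.0647 (0.0468 to 0.0876) in NonIR 2 and 0.0371 (0.0327 to 0.0419) in NonIR 3, where the intervals of the NonIR pair do not overlap. The Cst10 count per Smr3a read was 1.28 (0.735 to 2.25) in PreIR-GFP 3, 1.15 (0.735 to 1.82) in NonIR 2 and 0.731 (0.622 to 0.859) in NonIR 3. For Amy1 per Chia1 read the values were 0.866 (0.766 to 0.979) in PreIR-GFP 3, 1.17 (1.06 to 1.3) in NonIR 2 and 0.469 (0.450 to 0.489) in NonIR 3, and no pair of these intervals overlaps. These are ratios of reads within a library, not per length.

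With NonIR 3, NonIR 2 and PreIR-GFP 3 left out, r over the remaining 10 libraries was 0.70 for Cst10 and Amy1, 0.25 for Cst10 and Smr3a and -0.33 for Smr3a and Amy1. The Cst10 and Smr3a values then rest on 14 and 20 reads. Smr3a and Smr2, at r = 0.13 over 13 libraries, stood at 0.93 over those 10, where PreIR-GFP 1, PreIR-GFP 2 and PreIR-NTN 5 were the 3 highest for both genes. At 7, 4 and 5 Smr3a reads in those libraries, this is a weak basis for any pattern.

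**Figure D4:**
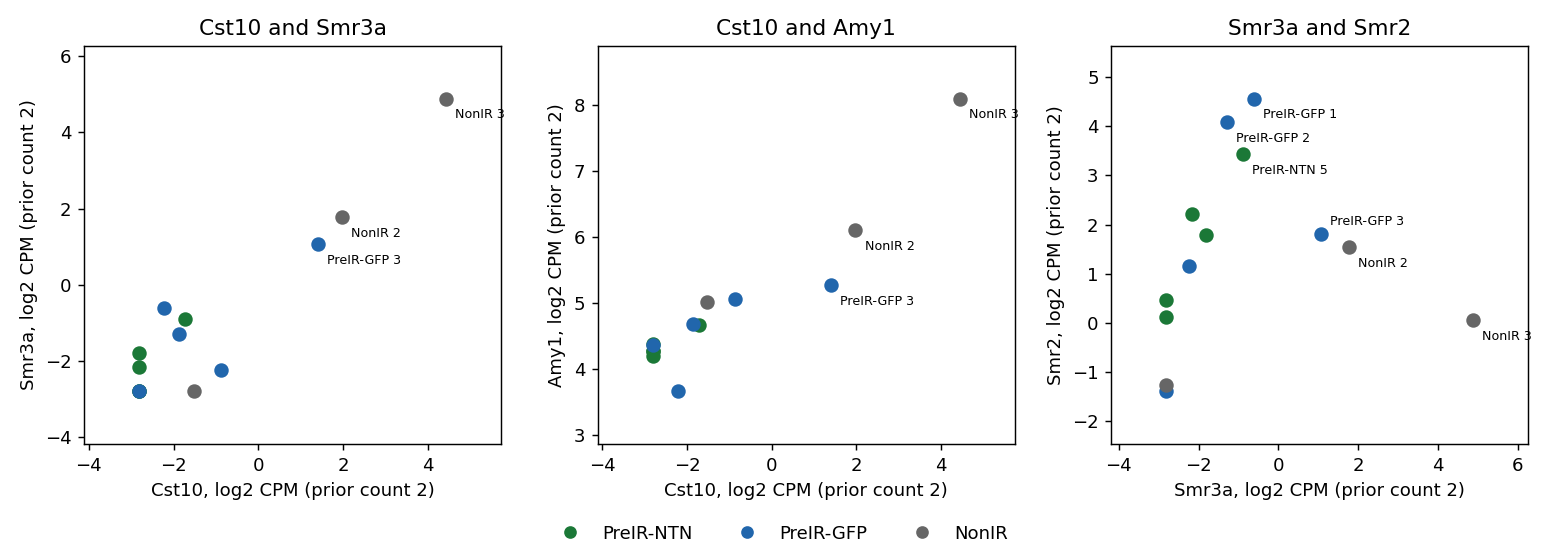
Log2 CPM (prior count 2) of Smr3a against Cst10, Amy1 against Cst10 and Smr2 against Smr3a, with 1 point per library coloured by group. NonIR 3, NonIR 2 and PreIR-GFP 3 carry the relation of Cst10 with Smr3a and Amy1 (r = 0.93 and 0.94 over 13 libraries), and in the right panel the same 3 libraries lie off the line that the other 10 form.

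Smr2 was most like another set of genes. The list was Gm42303 (r = 0.93, and 0.91 without PreIR-GFP 1), an antisense RNA on chromosome 4, Gm44239 (0.93 and 0.93), a pseudogene on chromosome 6, and Scgb2b6, Scgb2b12 and Scgb2b7 (0.92, 0.90 and 0.90) on chromosome 7. The Scgb2b genes encode secretoglobins of the androgen-binding protein family, which mice secrete in saliva, and Scgb2b6 is annotated as a pseudogene. Scgb2b7 had 5.31, 1.88, 1.79, 1.89 and 48.0 CPM in PreIR-NTN 1 to 5, 41.8, 29.6, 8.52, 0.607 and 0.357 in PreIR-GFP 1 to 5, and 0.274, 1.10 and 0.735 in NonIR 1 to 3. Gm44239 had 247, 47.2, 136, 162 and 726 CPM in PreIR-NTN, 450, 774, 127, 66.6 and 25.1 in PreIR-GFP, and 25.3, 84.3 and 54.6 in NonIR. PreIR-NTN 5, PreIR-GFP 1 and PreIR-GFP 2 were the 3 highest libraries for both genes, as for Smr2. The Scgb2b genes are near-copies of each other, so reads may be split between them.

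Relatives of the 4 genes and markers of glands and other tissues were read from lists, none of which holds the 4 genes, and 109 listed genes were tested. With the quasi-likelihood test of edgeR and Benjamini-Hochberg adjustment over 14727 genes, 0.0204% of all genes had an adjusted p under 0.05 for PreIR-NTN over NonIR, 0.034% for PreIR-GFP over NonIR and 0.0204% for PreIR-NTN over PreIR-GFP. None of the 109 was among them in any comparison, and 8, 17 and 14 had an unadjusted p under 0.05, beside 7.97%, 8.78% and 6.08% of all genes. Here and below, the former are counts out of 109, not percentages. As shares of 109, those for PreIR-GFP over NonIR and PreIR-NTN over PreIR-GFP lay above all genes, and that for PreIR-NTN over NonIR below. The lists were chosen with earlier results known, so nothing is read from this. In the same order of comparisons, DESeq2 gave no adjusted p to 33, 15 and 2 of the 109. It called Csn3, the kappa-casein gene, alone of them, for PreIR-GFP over NonIR, where it called 0.574% of the genes to which it gave an adjusted p. For PreIR-NTN over NonIR and over PreIR-GFP it called none of the 109, beside 0.324% and 0.258% of such genes. In the same order of comparisons as for edgeR, 11, 18 and 12 of the 109 had an unadjusted DESeq2 p under 0.05. The shares of all genes were 7.72%, 8.38% and 5.88%. By limma-voom none of the 109 was called, beside 0.00679%, 0% and 0% of all genes, for PreIR-NTN over NonIR, PreIR-GFP over NonIR and PreIR-NTN over PreIR-GFP. In that order, 5, 14 and 7 had an unadjusted limma-voom p under 0.05, beside 7.31%, 7.76% and 5.66% of all genes.

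Of 21 listed cystatins, 16 were in the table and 4 were tested, Cst3, Cstb, Cst6 and Cst7, of which none was called by edgeR in any comparison. Their r with Cst10 was between 0.25 and 0.43. The median log2 fold change of these 4 cystatins was 0.17 for PreIR-NTN over NonIR, -0.27 for PreIR-GFP over NonIR and 0.14 for PreIR-NTN over PreIR-GFP, beside 0.00, 0.02 and -0.01 over all genes tested.

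Of 21 genes listed for the Smr, proline-rich and casein locus, 18 were in the table and 8 were tested, none of them called by edgeR. Their median log2 fold change was -0.20, 0.02 and -0.10 in the same order of comparisons. Prol1, a mucin gene of the locus, was at 27288 to 50962 CPM in PreIR-NTN, 29700 to 67171 in PreIR-GFP and 41680 to 52187 in NonIR, and its r with Smr2 was -0.60. Csn3 was picked after its values were seen: it had 4.37, 1.41, 3.42, 0.580 and 11.8 CPM in PreIR-NTN 1 to 5, 69.8, 37.5, 2.81, 0.202 and 0.476 in PreIR-GFP 1 to 5, and 0.0684, 0.338 and 0.572 in NonIR 1 to 3. Its 3 highest libraries were those of Smr2, at r = 0.89, and Odam, an ameloblast-associated gene of the locus, had an r of 0.80 with Smr2. These were the highest r of the 8 genes tested. Jchain, Rufy3 and Utp3, further genes of this list, had an r of 0.45, 0.31 and 0.06 with Smr2.

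Because Amy1 and proline-rich proteins are known as parotid products, 7 parotid genes were read beside them. All 7 were in the table, 5 had at least 10 reads in a library and none of the 4 tested was called by edgeR. The median log2 fold change of these 4 was 0.61, 0.52 and -0.27 in the same order of comparisons. The 7 genes summed to 117160 to 157005 CPM in PreIR-NTN, 92520 to 165431 in PreIR-GFP and 97214 to 125726 in NonIR, nearly all of it Car6 and Bpifa2, which the submandibular gland also makes at a high level. Prh1, a proline-rich protein gene, had 0.717, 0.117, 1.14, 1.16 and 26.1 CPM in PreIR-NTN 1 to 5, 4.64, 39.5, 0.0782, 1.01 and 0.0594 in PreIR-GFP 1 to 5, and 0, 0.844 and 0.163 in NonIR 1 to 3. It was thus high in the libraries of Smr2 (r = 0.84) and near 0 in NonIR 3, where Amy1 was highest. Prp2 and Prb1, further genes of the parotid list, were also read there. Prp2 had 13 reads in PreIR-NTN 5, 1 in PreIR-NTN 3, 29 in PreIR-GFP 2 and 0 elsewhere, and Prb1 had 4 reads in PreIR-NTN 5, 9 in PreIR-GFP 1 and 5 in PreIR-GFP 2 among 19 in all. Dnase1, a secreted nuclease gene, was highest in NonIR 3, at 27.5 CPM, against 6.27 to 18.1 in the other 12 libraries.

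Of the summed marker lists of other tissues and cell types, none was highest in NonIR 3. A sum follows the most abundant genes of its list, so it does not show how the other genes of the list stood. For example, Bpifb1, of the sublingual list, was highest in NonIR 3, with 20 of its 61 reads, followed by PreIR-GFP 1 with 19. The 16 cartilage genes, read because Cst10 is known from cartilage, summed to 71.8 to 91.8 CPM in PreIR-NTN, 60.2 to 108 in PreIR-GFP and 86.9 to 113 in NonIR, and to 86.9 in NonIR 3. Most of the sum was Sox9, a transcription factor that is not limited to cartilage, with 66.4 CPM in NonIR 3, and Chad, Ucma and Cnmd, genes of cartilage matrix and cartilage growth, followed with 3020, 456 and 316 reads over all libraries. Of the 6 cartilage genes tested, Ucma, Cnmd and Sox9 had an r of 0.54, 0.43 and 0.25 with Cst10. That of Chad, Comp and Col9a3 was negative, at -0.35, -0.37 and -0.46. Acan, Col9a1 and Matn1 had 0 reads in all 13 libraries, and Col2a1 had 1 read. The 12 sublingual genes summed to 27.3 to 609 CPM in PreIR-NTN, 27.5 to 241 in PreIR-GFP and 29.4 to 153 in NonIR, with 153 in NonIR 3, 145 in NonIR 2 and 200 in PreIR-GFP 3. The 21 pancreatic acinar genes summed to 5.10 to 13.2 CPM in PreIR-NTN, 6.66 to 23.8 in PreIR-GFP and 3.70 to 7.60 in NonIR, with the 23.8 in PreIR-GFP 3. Of these, 23.2 CPM were Rnase1, a secreted ribonuclease and the only gene of the list tested, which had 1657 reads over all libraries, and Pnlip, Cpa1 and Prss1 had 0 reads. The 18 acinar genes of the submandibular gland found in the table summed to 149861 to 318632 CPM in PreIR-NTN, 68537 to 321461 in PreIR-GFP and 178078 to 256984 in NonIR. The median log2 fold change, in the same order of comparisons, was -0.06, 0.12 and 0.07 for the 6 cartilage genes tested, 1.08, 0.50 and 0.60 for the 5 sublingual genes and 0.13, 0.12 and 0.05 for the 18 acinar genes. For 21 genes of the granular convoluted tubule, the duct segment that stores growth factors and kallikreins, it was -0.33, -0.65 and 0.24. No gene of these lists, nor of those for ducts, muscle, fat, lymph node, red blood cells and sex-linked genes, was called by edgeR in any comparison. The part that gland composition had in the levels of the 4 genes was not tested.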

How the data were processed

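The members and the gene lists were chosen with earlier results of these data known. Every result but 1 alternative comes from the raw read counts per gene that the authors deposited for 13 libraries. The authors' second table holds normalised signal, found on testing to be the counts scaled per library. Per the labels' protocols, cDNA came from a SMART-Seq v4 reaction, which does not mark strand, and libraries from Nextera XT. Alignment was by STAR 2.5.2a to GRCm38.p3, per the submitters' processing notes, which give no counting tool. The design text of the series names another sequencer, other aligners and triplicates, and the sample labels were followed.

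From the counts, 24 spike-in and transgene entries were set aside, genes were kept by filterByExpr, TMM factors scaled the libraries, and the robust quasi-likelihood F test of edgeR 4.0.16 (R 4.3.3) was run on all libraries together, with a mean for each group and no covariate. P-values, two-sided, were adjusted by Benjamini-Hochberg over 14727 genes, with a threshold of 0.05. For the 4 members only the fold change and its standard error were read from it. Alternatives were other scaling factors, no filter, each library left out, a block by replicate number, DESeq2 1.42.0, limma-voom 3.58.1 and fits of 2 groups. The script was tested on simulated data. Counts of 0 were read as up to 3 reads. PCR copies were not marked by molecular identifiers, so intervals (95%, Poisson for a level, exact binomial for a ratio of reads) and floors cover counting error only. For each member, the 5 genes with the highest Pearson's r are named, and of each list up to 4 genes with the highest mean. Genes named outside this rule were picked after their values were seen: Csn3, Odam, Prp2, Prb1, Acan, Col9a1, Matn1, Col2a1, Pnlip, Cpa1 and Prss1. Comp, Col9a3 and Myh4 were picked in the same way. Promoters were aligned with Biopython 1.88.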

Additional observations from a re-analysis of the deposited data

Results flagged for a closer look

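In 28 groups of 5 libraries, 4 genes and the 10 genes most like them in PreIR-NTN and PreIR-GFP, the highest or lowest library was set against the others by Dixon's criterion, and 7 groups met it. Chance meets it in about 1 group in 20, but that rate is for normally distributed values of genes not chosen for their levels. The criterion was applied to CPM without a log, where values are skewed and some are 0, so the rate need not hold here. These genes were picked for uneven signal or for likeness to such genes, so the 7 are a description, and nothing is read from their number. NonIR, with 3 libraries, was not examined. Among the members, PreIR-GFP 3 stood away from the rest of its group for Cst10, at 2.5 CPM, and for Smr3a, at 1.95 CPM. For Cst10, PreIR-NTN 5 stood away at 0.159 CPM, but this is 2 reads against 0 in the other 4 libraries, and since a count of 0 allows up to 3 reads the library cannot be told from them. PreIR-NTN 5 also stood away for BC037156, at 0.317 CPM, for Scgb2b6, at 3.17 CPM, for Scgb2b12, at 5.55 CPM, and for Scgb2b7, at 48.0 CPM. The BC037156 value is only a few reads, since 1 read is worth 0.0793 CPM in that library. It stood beside 0.0717 CPM in PreIR-NTN 1 and 0 in PreIR-NTN 2 to 4, all near the detection limit. Genes that move together meet the criterion together. Their causes were not tested.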

How the results depend on the processing

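Of 234 alternative values of the members' fold changes, 21 moved by at least 1 SD of log2 CPM between libraries and 4 had the other sign. Among the 72 that left out no library, 5 moved and 0 had the other sign. These 5 were differences of group means of log2(deposited value + 1), a scale that compresses low genes: Cst10 -2.30, -1.83 and -0.47 for PreIR-NTN over NonIR, PreIR-GFP over NonIR and PreIR-NTN over PreIR-GFP, and Smr3a -2.19 and -1.83 for the comparisons with NonIR. With each library left out, PreIR-GFP over NonIR ranged from -4.39 to -1.72 for Cst10, -5.70 to -1.58 for Smr3a, -2.68 to -0.95 for Amy1 and 2.11 to 3.98 for Smr2. PreIR-NTN over NonIR ranged from -9.90 to -5.70, -7.46 to -3.68, -3.02 to -1.29 and 0.92 to 2.82, and PreIR-NTN over PreIR-GFP from -6.07 to -3.61, -3.12 to -0.74, -0.49 to -0.16 and -1.90 to -0.45, in the same gene order. Leaving out pairs of libraries was chosen after seeing the data. Without PreIR-GFP 1 and 2, Smr2 was 0.48 (PreIR-GFP over NonIR) and 1.19 (PreIR-NTN over PreIR-GFP). Without NonIR 2 and 3, PreIR-NTN and PreIR-GFP over NonIR were -2.51 and 1.46 for Cst10, 3.84 and 5.93 for Smr3a and -0.65 and -0.31 for Amy1. The lone NonIR 1 is then assumed to vary like the other groups, and with its 0 Smr3a reads the Smr3a values depend on the prior count.

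The share in the highest library ranged, with each library left out, from 52.2% to 86.1% for Cst10, 49.1% to 89.6% for Smr3a, 20.5% to 50.7% for Amy1 and 33.4% to 43.7% for Smr2. In CPM of the library total, without TMM, it was 43.6% for Amy1 and 43.1% for Smr2. Genes called for PreIR-NTN over NonIR, PreIR-GFP over NonIR and PreIR-NTN over PreIR-GFP, at 3, 5 and 3 by edgeR, were 31, 73 and 38 by DESeq2, 1, 0 and 0 by limma-voom, 3, 0 and 4 with upper-quartile factors, 4, 20 and 10 without the filter and 2, 0 and 0 in fits of 2 groups. At an unadjusted p under 0.05, limma-voom had 1143 and 833 genes in the last 2 comparisons, upper-quartile factors 1259 in the second, and the fits of 2 groups 1007 and 815. With each library left out the counts called ranged from 0 to 4, 0 to 17 and 0 to 11. Same-numbered libraries did not all deviate together (correlations of -0.43 to 0.28). Differently numbered libraries were not set beside them, so this does not settle whether the numbers pair the libraries. With the replicate block, 0, 0 and 0 genes were called (879, 1084 and 691 at an unadjusted p under 0.05), and Cst10 was -7.18, -3.62 and -3.56. Of the 5 genes most like a member, 2, 1, 0 and 2 stayed among the first 5 by Spearman's rho for Cst10, Smr3a, Amy1 and Smr2, and 4, 2, 1 and 2 by r without the highest library. The causes of these shifts were not tested. At 2 to 8 reads per group, as for Cst10 and Smr3a in PreIR-NTN, depth limits any statement on a level.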
